A study of Mus musculus with 3 samples.

Results

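The TRIM (tripartite motif) family was taken as every gene with a protein-coding transcript and a symbol of Trim followed by a digit in the deposited transcript tables. This gave 68 of the 55536 annotated genes, or 68 beside 22028 protein-coding genes, and levels were not used to choose them. The cells were primary macrophages grown from C57BL/6J bone marrow, treated with lipid A at 100 ng/ml for 50 min, and their chromatin-bound RNA had been sequenced after depletion of ribosomal RNA. Lipid A is the membrane anchor of lipopolysaccharide and the ligand of Toll-like receptor 4. All 3 libraries (replicates 1, 2 and 3) belonged to this 1 group and were made from 1000, 250 and 500 ng of RNA, in that order. The labels number them as biological replicates but give them the same donor code, so how far the spread between libraries is technical cannot be told, and untreated cells were not analysed here. The values are therefore levels at 1 time on chromatin and show no response to lipid A.

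Most TRIM proteins carry an N-terminal RING domain, which makes many of them ubiquitin ligases, followed by B-box domains and a coiled coil through which they pair. The C-terminal domain sets the target, and in many members it is a SPRY domain. Several members restrict viruses or regulate the pathways by which macrophages sense microbial RNA, DNA and lipopolysaccharide, and many of these are induced by interferon. Other members act as transcription cofactors or are best known from muscle, neurons or germ cells.

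The gene tables held 10496703, 17687379 and 14806118 expected counts in replicates 1, 2 and 3, and the family took 0.170%, 0.134% and 0.145% of them (mean 0.150% ± 0.0184, SD, n = 3). Levels below are in TPM, transcript abundances corrected for length and scaled to a fixed sum. A member was called detected when each library gave it 10 expected counts or more. By this measure 38 of the 68 members were detected (55.9%), beside 9665 of 22028 protein-coding genes (43.9%). A further 13 members had 0 counts in all 3 libraries (19.1%, beside 32.9% of protein-coding genes), and a 0 allows up to 3 counts in a library, for counting error only. Of the macrophage markers 10 of 10 were detected, beside 1 of 8 muscle, 0 of 8 neuron, 0 of 7 erythroid, 1 of 8 germ cell and 1 of 8 lymphocyte markers. In bulk libraries fewer cells with a transcript and less of it per cell cannot be told apart.

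**Figure D1:**
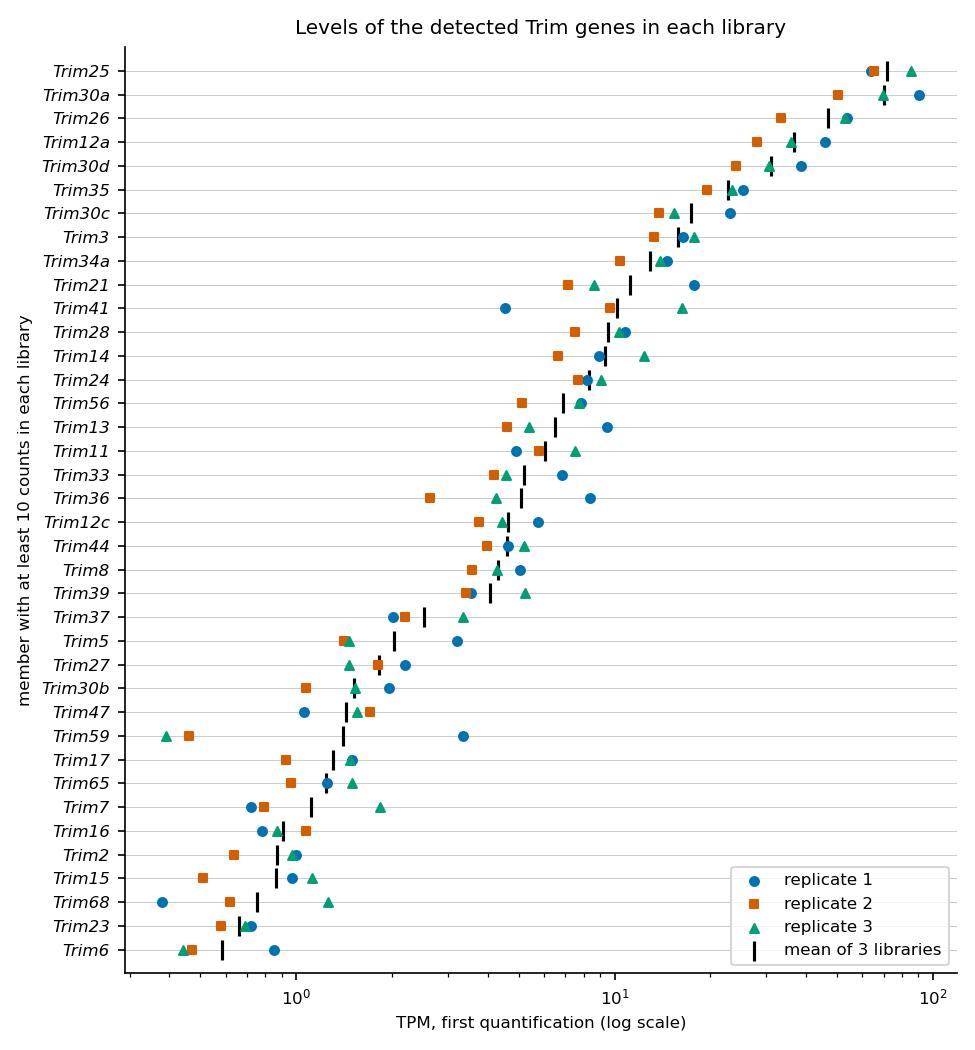
TPM of the 38 detected members in each of the 3 libraries, on a log scale, in falling order of the mean (black bar). Trim25 and Trim30a stand at the top at 71.7 and 70.2 TPM, and replicate 2 is the lowest library for 27 of the 38 members.

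The family's RNA was concentrated in a few members. Trim25 alone held 24.4% of all counts of the family, and the 5 members with most counts held 63.8%. At least 10 TPM was reached by 11 members (16.2%, beside 14.9% of protein-coding genes), and at least 50 TPM by 2 members (2.94%, beside 3.62%). The median member stood at 0.868 TPM, with library medians of 0.84, 0.60 and 0.93 TPM in replicates 1, 2 and 3, beside 0.24, 0.17 and 0.22 TPM for all protein-coding genes. Replicate 2 had the lowest TPM for 27 of the 38 detected members (71.1%) and for 63.7% of detected protein-coding genes, so its low values were shared with genes outside the family.

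Members with antiviral or interferon-linked roles made up most of the signal. This list held 17 members, of which 15 were detected, with a median of 9.33 TPM and 77.6% of the family's counts. Trim25, the ligase that ubiquitinates the viral RNA sensor RIG-I, had 64.1, 65.3 and 85.6 TPM in replicates 1, 2 and 3 (71.7 ± 12.1, SD, n = 3), the highest mean of the family and rank 545 among 9665 detected protein-coding genes. Trim30a, described in mouse macrophages as a brake on Toll-like receptor signalling, had 90.6, 50.4 and 69.6 TPM (70.2 ± 20.1). These 2 genes did not differ beyond their spread, and Trim30a was the higher of them in replicate 1 only. Trim26, a regulator of virus-induced interferon production, followed with 53.9, 33.5 and 53.0 TPM (46.8 ± 11.6).

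Other members of this list stood lower. Trim21, a cytosolic antibody receptor that marks antibody-coated virus for destruction, had 17.7, 7.12 and 8.64 TPM (11.2 ± 5.74), with replicate 1 above both other libraries. Trim14, an adaptor of antiviral signalling at mitochondria, had 8.97, 6.63 and 12.4 TPM (9.33 ± 2.90), and overlaps Nans on the opposite strand, a gene with 2.92 TPM. Trim56, which regulates sensing of nucleic acids, had 7.84, 5.11 and 7.73 TPM (6.89 ± 1.55). The ranges of these 3 genes overlapped one another. Trim65, a ligase for the RNA sensor MDA5, was near the bottom with 1.25, 0.96 and 1.5 TPM (1.24 ± 0.270), and overlaps Trim47 on the same strand. Trim38 had 1, 3 and 0 counts and Trim34b 3.45, 5.89 and 5.53 counts in replicates 1, 2 and 3, and neither was detected. In the second quantification, described below, Trim34b had 13.65, 24.81 and 16.7 counts and passed the detection minimum. The 4 genes listed as Trim25 partners in RIG-I signalling were all detected, with 94.7 ± 20.4 TPM for the antiviral zinc finger gene Zc3hav1, 38.3 ± 11.0 TPM for Ddx58, which encodes RIG-I, 5.34 ± 1.02 TPM for the RIG-I ligase Rnf135 and 1.16 ± 0.30 TPM for the mitochondrial adaptor Mavs.

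A cluster on chromosome 7 held 10 of the 17 antiviral members within 289 kb (chr7:104218793-104507849, GRCm38), in the order Trim6, Trim34a, Trim5, Trim12a, Trim34b, Trim12c, Trim30b, Trim30c, Trim30a and Trim30d. The interval had 8 other annotated genes, none protein-coding. The cluster carried 37.1% of the family's counts, with summed levels of 224, 134 and 173 TPM in replicates 1, 2 and 3 (177 ± 45.5). Its 4 Trim30 genes summed to 154, 89.5 and 117 TPM (120 ± 32.4), while Trim12a, Trim12c and Trim5, the mouse relatives of the retroviral restriction factor TRIM5, summed to 54.8, 33.3 and 41.9 TPM (43.3 ± 10.8).

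**Figure D2:**
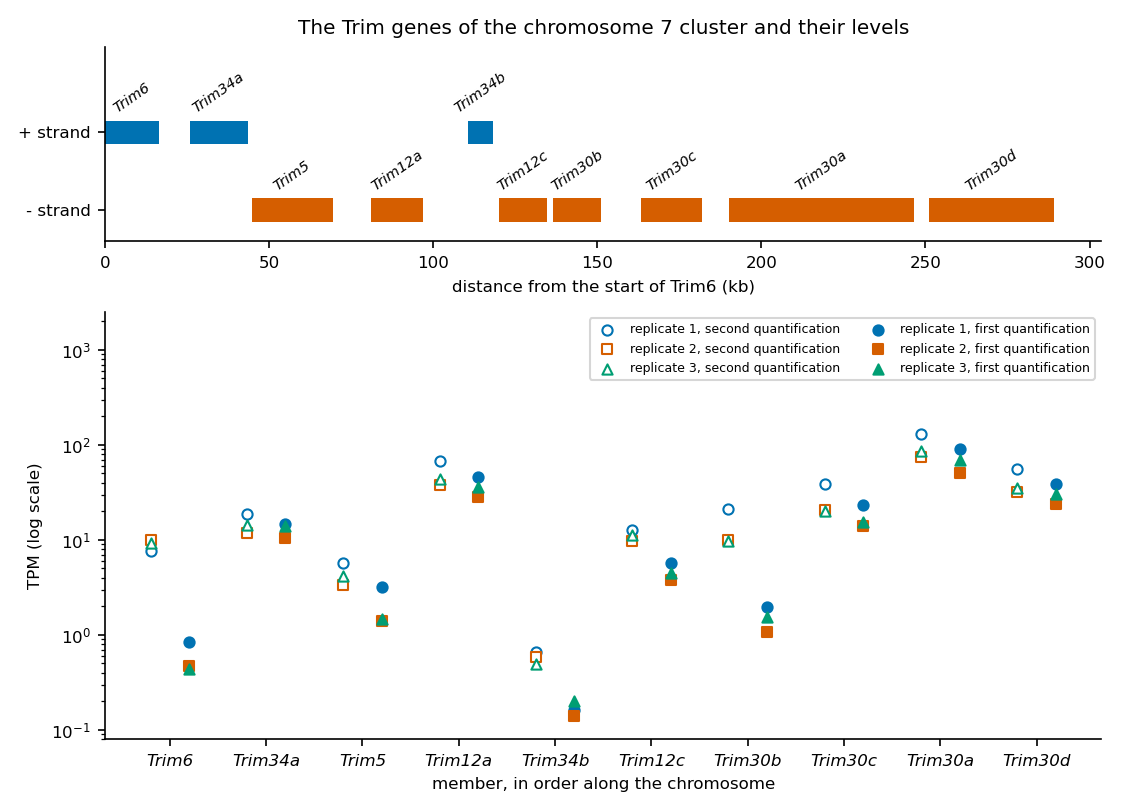
Upper panel, the 10 genes of the chromosome 7 cluster by strand, in kb from the start of Trim6. Lower panel, TPM of each gene in the 3 libraries on a log scale, in the second quantification (open symbols) and the first (filled symbols), with neighbours such as Trim12a and Trim34b far apart in level and Trim6 and Trim30b differing most between the quantifications.

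Neighbouring genes of the cluster differed widely in level. Trim12a had 45.8, 28.1 and 36.0 TPM (36.6 ± 8.88) and Trim30d 38.4, 24.1 and 30.6 TPM (31.03 ± 7.15), and these 2 overlapped. Trim30c had 23.1, 13.8 and 15.4 TPM (17.4 ± 4.94). Trim34a had 14.7, 10.4 and 13.9 TPM (13.0 ± 2.27), overlapping Trim30c. Below a gap that no library of the first quantification crossed came Trim12c with 5.75, 3.74 and 4.43 TPM (4.64 ± 1.02). Under it were Trim5 with 3.19, 1.41 and 1.47 TPM (2.02 ± 1.01), Trim30b with 1.96, 1.07 and 1.53 TPM (1.52 ± 0.445) and Trim6 with 0.85, 0.47 and 0.44 TPM (0.587 ± 0.229). The gap was absent from the second quantification. There Trim34a had 18.7, 11.7 and 14.4 TPM, Trim12c 12.7, 9.78 and 11.2 TPM and Trim30b 20.9, 10.01 and 9.82 TPM. Trim6 makes ubiquitin chains that activate an interferon-signalling kinase in human cells.

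Reads could be divided among these paralogs in more than 1 way. The 31-base words of the annotated transcripts were compared on either strand with those of any other gene, inside or outside the family. Of these words, 68.5% of those of Trim34a, 53.3% of Trim5 and 48.1% of Trim12c also occurred in another gene. This compares with 16.0% for Trim12a, 11.9% for Trim30a, 11.9% for Trim30d and 5.69% for Trim30c. The share was 69.0% for Trim34b, 4.60% for Trim30b and 2.73% for Trim6. For words shared with another member alone it was 48.8% for Trim34a, 44.1% for Trim5, 43.5% for Trim12c, 12.1% for Trim12a and 10.5% for Trim30a. The posterior SD of the count that the deposited table gave for Trim34a was 2.40, 4.09 and 2.28 counts on 457, 624 and 547 counts in replicates 1, 2 and 3. A division among genes of the cluster leaves its sum of counts as it is, but can move its sum of TPM where the genes differ in transcript length. The single values of Trim34a, Trim34b, Trim5 and Trim12c, with the largest shares of such words, are uncertain in this respect. In that order their mean TPM was 1.15-, 2.56-, 2.13- and 2.39-fold higher in the second quantification, with 0.1 TPM added. Trim30b and Trim6, with small shares, differed more, 8.44- and 13.2-fold, so shared words do not mark which values differ most. Trim30d also contains a processed pseudogene on the same strand, Gm16464, which had 10.8 TPM of its own.

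Promoters of the cluster are shown because they hold a shared motif. The promoter table of RefSeq (GRCm38.p6, 250 bases before to 50 after a start) matched 53 of the 68 members by symbol. The letters GAAA, any 2 bases and GAAA, the core of an interferon-stimulated response element (ISRE), were searched on both strands, and overlapping matches were joined. Each stretch below runs 5′ to 3′ on the strand of the gene, with 30 bases on either side where the promoter extends that far and the match in capitals, and Trim30c is added as the closest stretch without a match.
Trim34a, chr7:104244437-104244506, + strand: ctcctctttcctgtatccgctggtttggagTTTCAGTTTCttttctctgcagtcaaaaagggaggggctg
Trim12a, chr7:104315446-104315515, - strand: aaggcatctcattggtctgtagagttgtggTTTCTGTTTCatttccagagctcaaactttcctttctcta
Trim12c, chr7:104353339-104353408, - strand: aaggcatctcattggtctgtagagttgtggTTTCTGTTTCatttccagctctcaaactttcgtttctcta
Trim30a, chr7:104465190-104465259, - strand: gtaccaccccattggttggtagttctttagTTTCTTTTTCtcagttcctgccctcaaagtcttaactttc
Trim30d, chr7:104507851-104507920, - strand: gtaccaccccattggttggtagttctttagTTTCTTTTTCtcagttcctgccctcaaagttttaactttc
Trim30c, chr7:104400876-104400945, - strand: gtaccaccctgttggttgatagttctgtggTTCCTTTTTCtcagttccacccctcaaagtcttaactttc
Trim21, chr7:102565433-102565499, - strand: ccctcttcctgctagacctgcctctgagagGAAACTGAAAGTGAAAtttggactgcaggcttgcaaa
Trim26, chr17:36836956-36837031, + strand: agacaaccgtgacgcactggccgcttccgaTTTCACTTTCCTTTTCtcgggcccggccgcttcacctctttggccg

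The stretches show how closely the paralogs match. The 70 bases of Trim12a are identical to those of Trim5 (chr7:104288116-104288185, - strand), and those of Trim12c differ at 3 positions outside the capitals (A49C, G50T and C62G, with Trim12a first and positions counted from 1 at the 5′ end of the printed stretch). Trim30a has 2 promoters with a match, and the printed stretch differs from Trim30d at 1 position (C61T, Trim30a first). The stretch of the other Trim30a promoter (chr7:104446084-104446153, - strand) is identical to Trim30d at 52 of 70 positions. Trim30c is identical to the printed Trim30a stretch at 62 of 70 positions, and the difference within the capitals, T33C, is the one that ends the match. In Trim21 and Trim26 a pair of matches overlaps within 16 bases, at bases 14 to 29 counted from the start in Trim21 and 160 to 145 bases before it in Trim26.

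The ISRE letters were present for 9 of the 53 members with a promoter (17.0%), beside 3.99% of the 27025 genes in the table and 4.07% of its detected protein-coding genes. The 9 were Trim34a, Trim5, Trim12a, Trim12c, Trim30a, Trim30d, Trim21, Trim26 and Trim2, and 6 of them are the paralogs of the cluster, which share sequence and are not independent. All 9 were among the 28 detected members with a promoter, and the letters were found for 0 of the 25 that were not detected. The 9 had a median of 13.0 TPM, with a range of 0.870 to 70.2 TPM, against 2.52 TPM for the 19 detected members without a match. Trim5 shared its 70 bases with Trim12a and had 2.02 against 36.6 TPM, and in the second quantification 4.42 against 49.7 TPM. The single value of Trim5 is uncertain, as stated above, but it was far below that of Trim12a in both quantifications. The match lay 49 to 40 bases before the start in Trim5 and at bases 11 to 20 counted from the start in Trim12a. Trim30c at 17.4 TPM and Trim25 at 71.7 TPM had no match in these windows. Whether the motif affects the levels was not tested. Of other motifs searched on both strands, the kappaB letters GGGA, any 2 bases and TTCC were found for 1 member, Trim28 (1.89%, beside 1.63% of genes), and the PU.1 letters AGAGGAAG for 0 (beside 5.22%). The TATA letters TATAAA were found for 7 (13.2%, beside 15.7%).

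Regulators of innate signalling outside the antiviral list were fewer and lower. Of 12 such members 8 were detected, with a median of 1.29 TPM and 10.5% of the family's counts. Trim35, which regulates signalling adaptors and glycolysis, led with 25.4, 19.6 and 23.3 TPM in replicates 1, 2 and 3 (22.8 ± 2.94), above every other member of this list in every library. Trim13, anchored in the endoplasmic reticulum, had a mean of 6.49 ± 2.61 TPM, but it lies opposite the noncoding gene Dleu2, which had 106 TPM. The strand setting of the counting was not given in the sources used here, so reads of genes on opposite strands could not be told apart. Trim11, Trim44, Trim8, Trim27, Trim68 and Trim23 lay between 6.06 and 0.663 TPM.

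**Figure D3:**
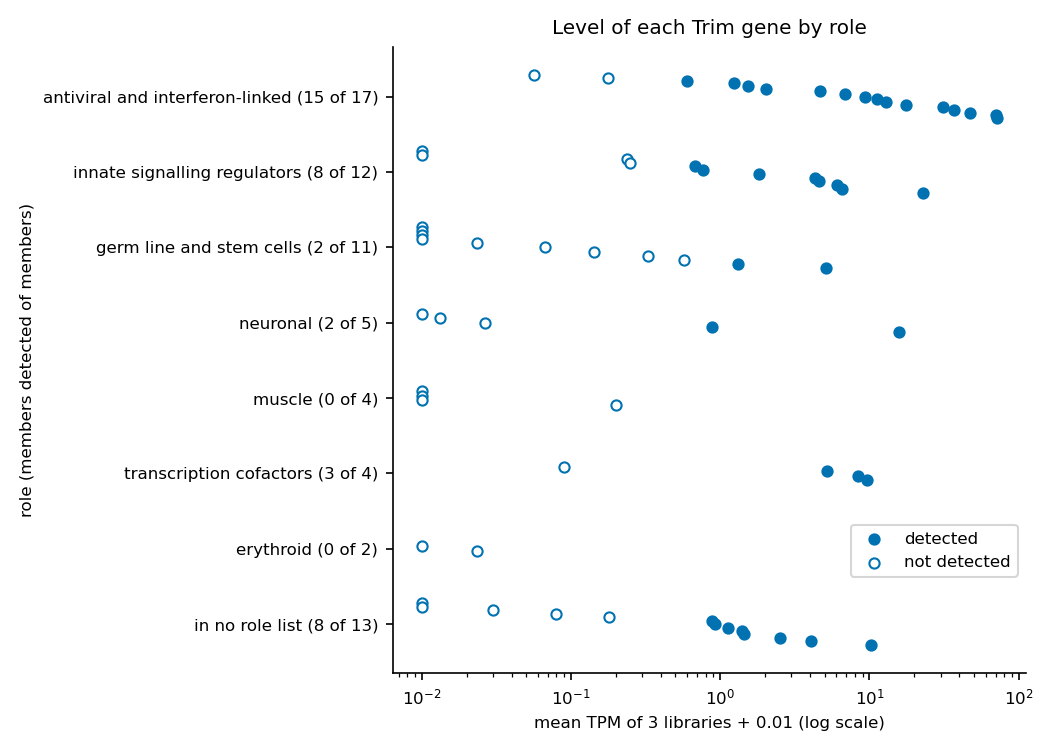
Mean TPM of all 68 members by role, on a log scale with 0.01 TPM added, with detected members filled and others open. The antiviral and interferon-linked row reaches furthest right, while the muscle and erythroid rows hold no detected member.

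Of the 4 transcription cofactors of the family 3 were detected, with means of 5.19 to 9.54 TPM. Trim28, the corepressor that zinc finger proteins bring to chromatin to silence transposable elements, had 10.8, 7.54 and 10.3 TPM (9.54 ± 1.75). Trim24, a cofactor of nuclear receptors, had a mean of 8.32 ± 0.703 TPM, and Trim33, a cofactor of SMAD signalling, of 5.19 ± 1.43 TPM. Trim66, the testis-enriched relative, was not detected, with 10, 8 and 10 counts. All 10 genes listed as silencing partners of Trim28 were detected, between 186 ± 26.1 TPM for the nucleosome remodeller Chd4 and 1.41 ± 0.777 TPM for the heterochromatin protein gene Cbx3. The histone methyltransferase gene Setdb1 stood at 5.64 ± 1.39 TPM.

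Of 22 members best known from other tissues 4 were detected in the first quantification and 10 in the second. In the first, none of the 4 muscle members and none of the 2 erythroid members was detected. Among the 5 neuronal members, Trim3, an NHL-repeat ligase of neurons, was high, with 16.4, 13.3 and 17.7 TPM (15.8 ± 2.28), and Trim2 was detected at 0.870 ± 0.20 TPM. Among the 11 germ line and stem cell members, Trim36, a microtubule-associated ligase known from sperm, had 8.35, 2.63 and 4.25 TPM (5.08 ± 2.95), and Trim17 had 1.30 ± 0.323 TPM. In the first quantification the neuron and germ cell markers counted above were at or near 0. The highest were Map2 at 0.0933 and Ddx4 at 0.483 TPM, and in the second Stmn2 at 0.740 and Spata19 at 3.28 TPM. The 13 members in no role list included 8 detected ones, led by Trim41, a ligase with 4.52, 9.69 and 16.3 TPM (10.2 ± 5.92).

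By C-terminal domain, the 38 SPRY members included 25 detected ones and held 83.4% of the family's counts. In the first quantification the PHD and bromodomain class had 3 of 4 detected, the NHL class 2 of 4 and the transmembrane class 2 of 2. The COS-box class of microtubule binders had 1 of 8, Trim36. In the second, Trim66 of the PHD, Trim71 of the NHL and Trim63, Trim67 and Trim9 of the COS-box class also passed the detection minimum. Of the SPRY class, Trim34b, Trim43b, Trim43c and Trim50 passed it there. By chromosome, 13 of 16 members on chromosome 7 and 9 of 11 on chromosome 11 were detected in the first quantification. On chromosome 9 there were 0 of 6 and on chromosome 8 0 of 4. In the second, Trim43b, Trim43c and Trim71 on chromosome 9, Trim67 on chromosome 8 and Trim34b and Trim66 on chromosome 7 also passed the detection minimum. The share of all protein-coding genes detected per chromosome was not computed. By their lowest library, the members nearest the detection minimum were Trim68 with 11, 21 and 32 counts on the inside, and Trim66, given above, and Trim62 with 7, 21 and 20 counts on the outside.

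Differences between libraries were taken as the log2 counts scaled to library size (CPM) with TMM factors, trimmed means over genes, of 1 library minus the mean of the other 2. Of the 40 members averaging 10 counts or more, replicate 2 was at least 1.5-fold lower for 4 (10%, beside 11.9% of all 13258 such genes) and at least 1.5-fold higher for 2 (5%, beside 11.4%). Replicate 1 was lower for 6 (15.0%, beside 18.8%) and higher for 7 (17.5%, beside 17.0%), and replicate 3 lower for 3 (7.5%, beside 7.20%) and higher for 4 (10%, beside 7.41%). With library totals in place of TMM, replicate 1 was lower for 2 (beside 8.38% of all genes) and higher for 11 (beside 33.2%), and that scaling moved the median of all genes in replicate 1 by 0.32 on the log2 scale, against -0.0049 with TMM. The median range between the libraries was 0.58 for the members and 0.61 for all genes on the log2 scale. There was 1 library on each side, so none of these differences was tested.

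Among the 40 members averaging 10 counts or more, those that varied most had few reads. Trim43c had the largest range, 2.56 on the log2 scale, on 15, 5 and 27 counts, and 71.8% of its 31-base words occur in another gene. Trim59, a transmembrane member, had 52, 15 and 18 counts, 3.82-fold higher in replicate 1 than in the other 2 (log2 difference 1.93 ± 0.32, counting error). Trim68 (range 1.32), Trim47 (1.31, on 19, 64 and 32 counts), Trim62 (1.27) and Trim7 (1.12, on 27.3, 49.7 and 68.0 counts) followed. Among members with more reads, Trim36 had 352, 218 and 240 counts (1.89-fold higher in replicate 1) and Trim21 202, 144 and 131 counts (1.81-fold higher in replicate 1).

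**Figure D4:**
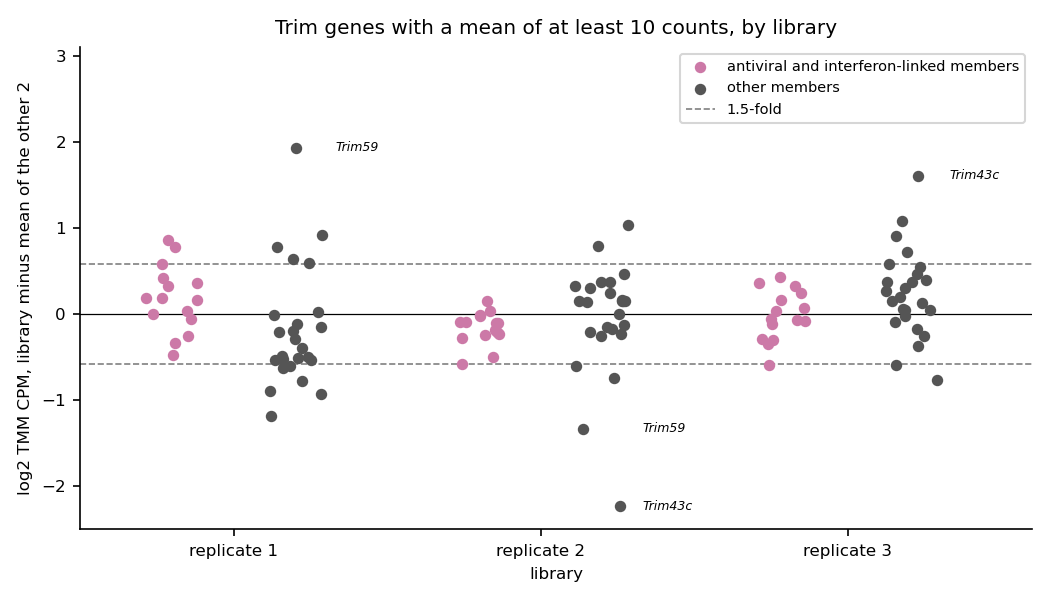
Log2 TMM-scaled CPM of each library minus the mean of the other 2, for the 40 members averaging 10 counts or more, with the 15 antiviral and interferon-linked members in pink and the others in grey, and dashed lines at 1.5-fold. In replicate 2 all 15 antiviral members lie above the lower line, Trim30b only just, while Trim43c and Trim59 are the lowest points.

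With TMM scaling, antiviral members stayed within 1.5-fold in replicate 2, in which most of a list of other interferon-stimulated genes were low. In replicate 2, 0 of the 15 antiviral members averaging 10 counts or more were at least 1.5-fold lower (median log2 difference -0.11), beside 11.9% of all genes and 12 of 19 interferon-stimulated genes (median -0.80). Trim30b, 1.49-fold lower, lay just inside that limit. For a list of 15, a count of 0 is near the share over all genes. With library totals, chosen after seeing the data, 2 of the 15 were lower, Trim21 and Trim30b (13.3%, beside 19.4% of all genes), and again 12 of the 19. The antiviral gene Rsad2 had 341, 51.4 and 313 TPM and Ifit1 34.8, 5.31 and 34.9 TPM in replicates 1, 2 and 3, with replicate 2 far below the others. Trim12c (range 0.070 on the log2 scale) and Trim34a (0.082) were the steadiest members. The difference between these lists was not tested, and replicate 2 also had the smallest input of RNA.

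In the first quantification, annotated retained-intron transcripts took a large share of the TPM of a few members, but not more often than over protein-coding genes. Whether reads in introns came from these transcripts or from RNA on chromatin not yet spliced was not tested. In 18 members with such a transcript their share of the gene's TPM had a median of 34.8%, beside 41.3% over 6468 protein-coding genes, and it passed 50% in 3 of 18 (16.7%, beside 37.4%). The order of these medians turned in the second quantification, with 48.1% for the members beside 42.2%. There Trim2 (69.6%), Trim59 (54.9%), Trim24 (54.4%), Trim37 (50.9%), Trim68 (50.7%) and Trim33 (50.3%) passed 50% in addition to the 3 of the first. The share of protein-coding genes above 50% in the second is not given here, so the low share of members rests on the first alone. The 3 members of the first were Trim21 with 80.1%, 82.3% and 77.4% in replicates 1, 2 and 3 (79.9% ± 2.44), Trim28 with 71.6%, 73.4% and 67.6% (70.9% ± 2.96) and Trim3 with 72.4%, 57.6% and 58.6% (62.9% ± 8.25). The transcripts concerned are short, and by counts the shares were 40.1% for Trim21, 47.2% for Trim28 and 25.8% for Trim3. By counts of the first quantification the only member above 50% was Trim12a, at 56.1% (1 of 18, beside 25.7% of genes), and the medians were 23.6% for the members beside 24.9%. By counts of the second, Trim7 (64.0%), Trim12a (56.1%), Trim2 (53.4%) and Trim28 (51.2%) were above 50%, and the medians were 37.8% beside 29.7%. Trim26 gave 37.3% ± 7.03 of its TPM to retained-intron transcripts, and its most abundant transcript was the noncoding Trim26-209, at 22.8 ± 5.74 TPM. Trim30a gave them 8.04% ± 4.09.

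**Figure D5:**
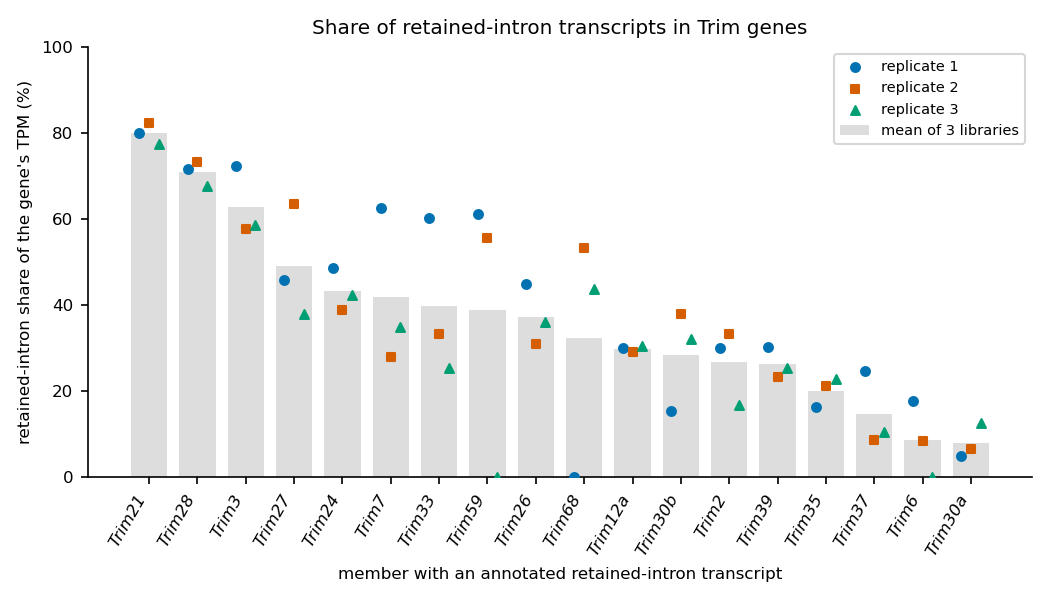
Retained-intron share of a gene's TPM in percent in the first quantification for the 18 members with such a transcript, per library (points) and as the mean of 3 libraries (bars). Trim21, Trim28 and Trim3 stand above 50% in every library, and members with few reads such as Trim59 and Trim68 range from 0 to over 50%.

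Single transcripts differed between libraries and quantifications. Trim41-202, a protein-coding model of 429 bases, had 0.66, 3.80 and 10.6 TPM in replicates 1, 2 and 3. The longest Trim41 transcript, Trim41-201, had 3.85, 3.28 and 4.90 TPM, a narrower spread. By counts the short model was a small part of the gene, with a mean of 18.8 counts against 234 for Trim41-201, and Trim41 as a gene was also 1.52-fold lower in replicate 1 on the TMM scale. Trim41 also lies opposite Rack1, a ribosomal protein gene with 21.3 TPM. Trim25 was divided between Trim25-203 with 46.1 ± 7.99 TPM and Trim25-202 with 25.6 ± 5.44 TPM. The second quantification gave the opposite order, with means of 41.9 TPM for Trim25-203 and 71.8 TPM for Trim25-202.

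The second deposited quantification of the same libraries gave more reads and higher levels. All 38 detected members had a higher mean TPM in it, and of the 40 members averaging 10 counts or more 19 were more than 1.5-fold higher (47.5%, beside 57.2% of 10322 protein-coding genes) and 0 lower (0%, beside 0.310%). The median ratio, with 0.1 TPM added, was 1.41 for the members and 1.61 for protein-coding genes, and it was 0.837 and 0.945 when TPM were rescaled over protein-coding genes only. After that rescaling 4 members were still more than 1.5-fold higher, Trim6, Trim30b, Trim65 and Trim2, and 4 were lower, Trim13, Trim16, Trim34a and Trim56, beside 20.1% and 15.3% of protein-coding genes. The order of the 40 members was similar, with a Spearman rho of 0.915 across genes that share the same reads.

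A few members depended strongly on which quantification was read. Trim6 had 7.71, 9.89 and 9.32 TPM in the second quantification, against 0.85, 0.47 and 0.44 TPM in the first, in replicates 1, 2 and 3 (13.2-fold with 0.1 TPM added). Trim30b had 20.9, 10.01 and 9.82 TPM, against 1.96, 1.07 and 1.53 TPM (8.44-fold). For both genes no library of the second quantification overlapped the first. Trim65 had 6.39, 3.88 and 4.72 TPM in the second (3.82-fold), and Trim12c 12.7, 9.78 and 11.2 TPM (2.39-fold). Trim2 had 3.57, 2.17 and 3.49 TPM in the second, against 1, 0.64 and 0.97 TPM in the first (3.28-fold). Trim5 had 5.74, 3.37 and 4.16 TPM in the second (2.13-fold), and for these 4 genes too no library of the second overlapped the first. Members at 0 counts in all libraries of the first quantification had at least 10 counts in each library of the second in 5 of 13 cases. Chosen after their values were seen, Trim52 had 12.8 ± 5.83 TPM there, of which 12.8 TPM belonged to the noncoding transcript Trim52-202, and the muscle ligase Trim63 had 3.61 ± 0.916 TPM, of which none belonged to a protein-coding transcript. Of the members known from other tissues, Trim9, Trim43b, Trim43c, Trim67 and Trim71 also passed the detection minimum there, at means of 0.620 to 1.11 TPM. Trim34b, Trim50 and Trim66 passed it there too. Detection of all these members is therefore uncertain.

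TRIM proteins with symbols of another form were outside the rule and are given for context. Of 8 such genes 4 were detected. Mid1, a microtubule-associated ligase, had 253, 224 and 176 TPM (217 ± 38.9), above every member of the Trim symbols, and 1178 TPM in the second quantification against that mean in the first. Mefv, which encodes the inflammasome protein pyrin, had 11.2 ± 1.65 TPM, and Pml, the organiser of nuclear bodies, 10.3 ± 1.91 TPM. The ubiquitin-conjugating enzymes that work with Trim21 were detected in 3 of 3 cases, Ube2n at 23.1 ± 10.6 TPM, Ube2v1 at 11.3 ± 2.49 TPM and Ube2w at 2.79 ± 1.79 TPM.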

How the data were processed

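Per the labels, 3 libraries of 1 group were sequenced. The deposited gene and transcript tables held expected counts, estimates made by the authors that need not be whole, and TPM, per the file headers. A second deposited transcript table gave TPM and estimated counts, per the file headers, here summed per gene. The posterior SD of a count is the authors', per the file headers. Per the deposited notes, reads were assigned on mm10 with GENCODE M21 genes. For the aligner, the quantifiers and the strand setting, names and versions are not given in the sources used here.

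Rows naming no mouse gene (1.28%, 0.427% and 0.383% of counts in replicates 1, 2 and 3) were left out. Expected counts were rounded for TMM factors (edgeR 4.0.16, R 4.3.3) and for DESeq2 1.42.0 size factors. Calls between libraries used 0.5 added to each count, a mean of at least 10 counts and 1.5-fold. With 1 group there was no test between groups. Ratios between quantifications used 0.1 TPM added. Figures were drawn with matplotlib 3.10.9.

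The members and lists were chosen with earlier results of these data known. Any detected member could be named, with all libraries given for the 12 highest, the antiviral list and, among members averaging 10 counts or more, the 6 largest ranges and the 6 largest ratios between quantifications.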

Additional observations from a re-analysis of the deposited data

How the results depend on the processing

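Detection held within 1.5 times under every alternative, with 48 members in the second quantification and 43 and 34 at minimums of 5 and 20 counts, and 38 to 40 with each library left out. The median level was 4.34 TPM rescaled over protein-coding genes, 1.78 TPM in the second quantification and 4.62 TPM for members averaging 10 counts or more, and 0.748 to 0.905 TPM with each library left out. The family's share of counts was 0.140% to 0.158% with each library left out. Calls between libraries rest on small numbers of members. For the alternatives other than library totals the share over all genes is not given, so their counts show nothing particular to the members. With library totals replicate 1 was lower for 2 and higher for 11, and of the 15 antiviral members 2 were lower in replicate 2 in place of 0. With a mean of at least 50 counts, which tests fewer members, lower and higher calls were 2 and 4 in replicate 1, 1 and 0 in replicate 2, and 1 and 0 in replicate 3. With no minimum, which adds members on few or no counts, there were 15 higher in replicate 1, 12 lower and 5 higher in replicate 2, and 14 lower in replicate 3. In the second quantification replicate 2 was higher for 4 and replicate 3 lower for 5, and with 2 added to each count replicate 3 was lower for 1. With 1 other library left out, the lower and higher calls were 5 to 8 and 6 to 6 in replicate 1, 4 to 6 and 2 to 5 in replicate 2, and 2 to 6 and 4 to 8 in replicate 3. The high ends were 5 for replicate 2 without replicate 3, and 6 and 8 for replicate 3 without replicate 2. The alternatives for replicates 1 and 3 and for the antiviral members were chosen after seeing the data. Members more than 1.5-fold higher in the second quantification numbered 4 after rescaling over protein-coding genes, and 12 to 22 with each library left out, the 12 being without replicate 1. Other than the construction of an alternative, the cause was not tested. Of the 38 detected members, 29 had a mean TPM more than 1 SD away in the second quantification. No paired analysis was possible because there was 1 group.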
